A study of Mus musculus with 6 samples.

Results

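Lymphoid priming and commitment genes are the genes that open, and later fix, the lymphocyte fates of blood progenitors. The 10 genes described here were taken from the deposited expression table of 23235 genes by symbol, and all 10 were found. They comprise 3 transcriptional regulators (Ikzf1, Satb1 and Notch1), the interleukin-7 receptor gene Il7r, 3 recombination enzymes (Dntt, Rag1 and Rag2), 2 B cell factors (Ebf1 and Pax5) and Cd3d of the T cell receptor complex. RNA came from sorted bone marrow cells labelled long-term haematopoietic stem cells (LT-HSCs), with 3 libraries from Hmces knockout mice and 3 from wild-type (WT) mice. All mice were 2 months old and listed as C57BL/6. HMCES shields abasic sites in single-stranded DNA by binding them. Each library was made with the Smart-seq2 method from the RNA of 1500 cells, and the design text speaks of duplicates although 6 libraries are labelled. The sources used here do not give the nature of the knockout allele, the sorting gates or the meaning of the 13bp tag in every title, WT included, and nothing says whether the libraries came from separate mice.

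In mouse bone marrow, lymphoid fate is primed before it is fixed. Ikaros, the zinc finger protein encoded by Ikzf1, and the genome organiser SATB1 act in multipotent cells. Progenitors that express the cytokine receptor FLT3 then switch on Dntt, Rag1 and Il7r, after which EBF1 and PAX5 set the B cell programme and Notch signals in the thymus set the T cell programme.

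Levels are in FPKM, a fragment number scaled to transcript length and to the mapped total of the library, and can be compared between genes. Depth was put at 9500000, 11200000 and 9300000 fragments in the Hmces knockout libraries and at 9700000, 13100000 and 14200000 in the WT libraries. Hmces itself, listed under its earlier symbol 8430410A17Rik, had 8.95, 0.222 and 6.95 FPKM in knockout and 39.5, 45.4 and 41.0 FPKM in WT libraries. Knockout replicate 2, which held the least Hmces, stood apart on the first principal component, which held 25.9% of the variance. Its score was 67.0, and those of the other libraries ran from -33.6 to 10.1. Its median correlation with the other knockout libraries was 0.888, close to the 0.893 of replicate 1 and the 0.897 of replicate 3. Within WT the medians were 0.925, 0.923 and 0.918, so that each knockout library correlated less with its own group than each WT library did. A link between the Hmces level of knockout replicate 2 and its score was not tested.

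In RNA, several marker genes did not follow the surface protein pattern that defines the cells named in the label. Surface protein was not measured in these libraries, so RNA levels alone cannot say whether the cells fit the label. LT-HSCs are defined by the surface markers EPCR (Procr) and CD150 (Slamf1) and by low or absent FLT3, CD34 and CD48. Procr ranged from 13.6 to 32.5 FPKM in Hmces knockout libraries and from 21.1 to 32.4 FPKM in WT libraries. Slamf1 reached at most 3.62 FPKM in Hmces knockout libraries and 5.08 FPKM in WT libraries. Fgd5 and Hoxb5, genes restricted to LT-HSCs within the marrow's stem and progenitor cells, had highest values over the 6 libraries of 1.23 and 0.912 FPKM. Flt3 ranged from 136 to 151 FPKM in Hmces knockout libraries and from 121 to 151 FPKM in WT libraries, and Cd34 from 453 to 496 and from 468 to 499 FPKM. Both genes were therefore far above Slamf1 in every library of either genotype. Cd48 ranged from 263 to 307 FPKM in Hmces knockout libraries and from 145 to 220 FPKM in WT libraries. Its groups did not overlap, and the difference was not called in the test described below (limma adjusted p = 0.324). Of 14 LT-HSC markers listed, 12 were tested. Knockout values lay wholly above WT for 2 of the 12, Ly6a and Esam, and wholly below for 0. The shares of all genes tested were 7.47% wholly above and 8.34% wholly below. In RNA from a sorted population, a change in the share of cells that express a gene and a change in RNA per cell cannot be told apart, and this holds for every value given here.

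**Figure D1:**
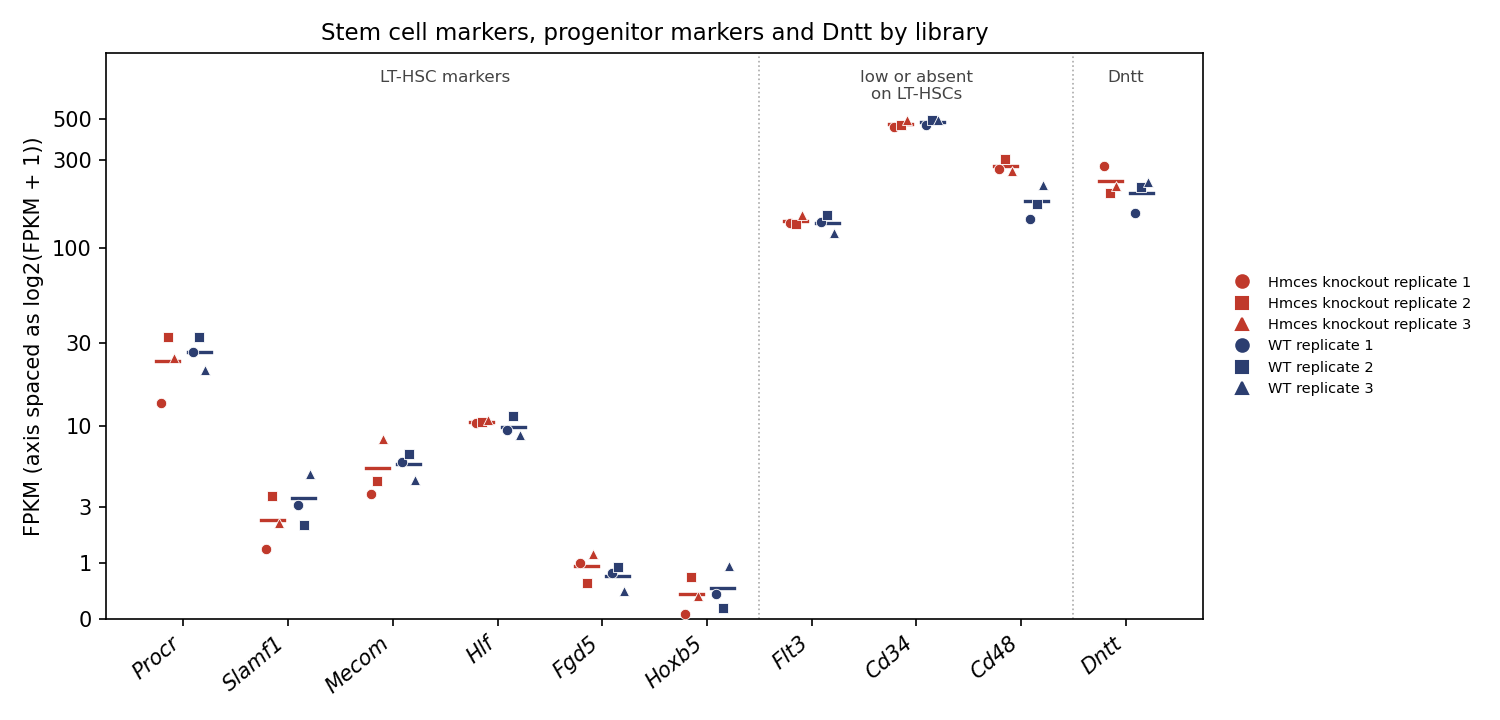
FPKM of 6 LT-HSC markers, 3 genes that are low or absent on LT-HSCs, and Dntt, in each of 3 Hmces knockout and 3 WT libraries; points are libraries and bars are arithmetic means of the genotype. Flt3, Cd34 and Cd48 lay above 120 FPKM in every library, whereas Slamf1 reached at most 5.08 FPKM and Hoxb5 at most 0.912 FPKM.

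By mean level, the 10 genes comprised a strongly expressed pair, 4 genes of moderate to low level and 4 genes with means below 1 FPKM. Dntt and Ikzf1 had means over the 6 libraries of 215 and 39.3 FPKM, and the range of each lay clear of the gene next in order. Satb1 (mean 8.38 FPKM), Notch1 (5.84 FPKM), Cd3d (3.62 FPKM) and Il7r (3.49 FPKM) followed with overlapping ranges. Satb1 was above Notch1 in 5 of 6 libraries, and Cd3d was above Il7r in 3 of 6. Ebf1 (0.957 FPKM), Rag2 (0.798 FPKM), Pax5 (0.197 FPKM) and Rag1 (0.115 FPKM) came last, and their order was not separated by the spread between libraries, nor was the range of Ebf1 from that of Il7r. Pax5 and Rag1 reached 1 FPKM in 0 libraries, Ebf1 in 1 and Rag2 in 2.

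**Figure D2:**
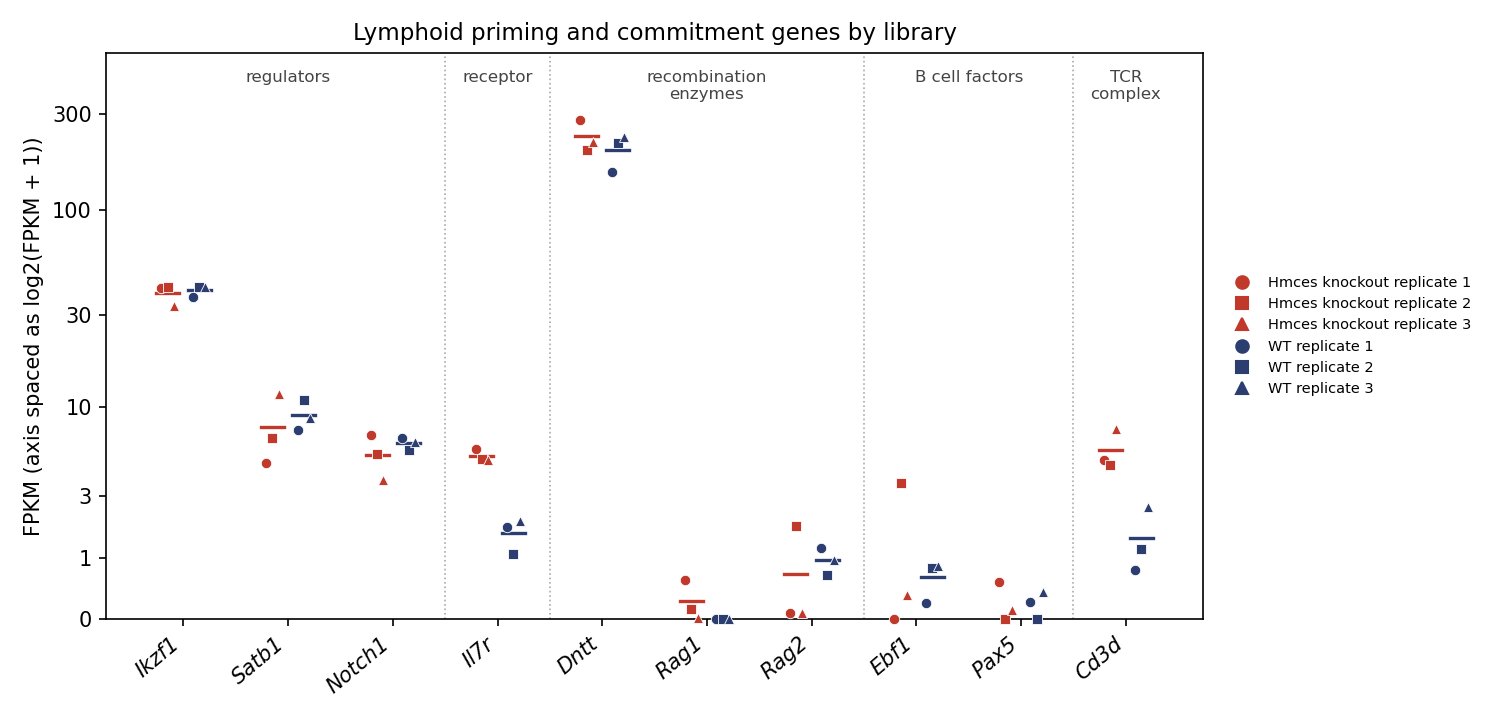
FPKM of the 10 lymphoid genes in each library, grouped by role, with Hmces knockout left of WT for each gene; bars are arithmetic means and are left out where a library is listed at 0. Dntt and Ikzf1 stand above all others in every library, the Il7r and Cd3d points of the 2 genotypes do not overlap, and Rag1, Rag2, Ebf1 and Pax5 have means below 1 FPKM, with single values up to 3.62 FPKM for Ebf1 and 1.84 FPKM for Rag2.

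No lymphoid gene was called between Hmces knockout and WT cells. The 6 genes with a mean of at least 1 FPKM were tested by limma on log2(FPKM + 1), together with 11532 genes in all. Of these 6, 0 passed an adjusted p of 0.05 (Benjamini-Hochberg), against 0.113% of all genes tested. Hmces itself, with knockout values wholly below WT and a log2 fold change of -3.23, did not pass either (limma adjusted p = 0.289). A gene that is not called can therefore still differ between the genotypes. At an unadjusted p under 0.05, 2 of the 6 were higher in Hmces knockout cells and 0 lower, against 4.32% of all genes higher and 4.84% lower. The 2 genes were Il7r and Cd3d, and they were also the 2 of 6 whose knockout values all lay above every WT value, against 7.47% of all genes tested, while 0 of 6 lay wholly below, against 8.34%. Among genes with a mean of 1 to 10 FPKM, the range of Il7r and Cd3d, 8.73% had knockout values wholly above WT and 4.13% were higher at an unadjusted p under 0.05. Both were already known to differ when the 10 genes were chosen, so their number is a description. The median log2 fold change, knockout minus WT, was 0.08 over the 6 genes and -0.01 over all genes tested.

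**Figure D3:**
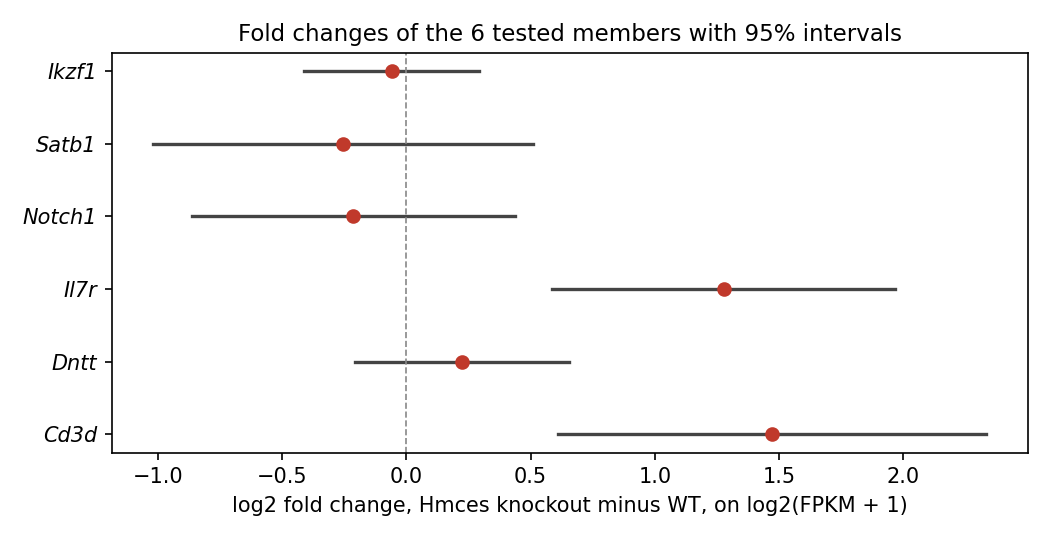
Log2 fold changes of the 6 tested lymphoid genes, knockout minus WT on log2(FPKM + 1), with 95% intervals from the limma fit across 11532 genes. The intervals of Il7r and Cd3d lie above 0 before adjustment for the number of genes tested, and those of Ikzf1, Satb1, Notch1 and Dntt include 0.

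Among the regulators, Ikzf1 lay between 33.1 and 41.7 FPKM in all libraries. It was read at 40.9, 41.7 and 33.1 FPKM in Hmces knockout libraries and at 37.0, 41.7 and 41.5 FPKM in WT libraries. Knockout replicate 3 was the lowest of the 6 and the groups overlapped. The means were 38.6 ± 4.72 FPKM in knockout and 40.1 ± 2.64 FPKM in WT cells (SD, n = 3 each), and the log2 fold change was -0.06 (95% interval -0.41 to 0.29, limma adjusted p = 0.931). The gene ranked above 86.0% to 88.1% of all genes in each library.

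Satb1, which organises chromatin loops in lymphoid cells and their progenitors, varied more. Its levels were 4.84, 6.70 and 11.7 FPKM in Hmces knockout libraries, against 7.48, 10.9 and 8.64 FPKM in WT libraries. The knockout group held both the lowest and the highest of the 6 values, with a coefficient of variation of 46.0% against 19.3% in WT. The log2 fold change was -0.25 (95% interval -1.02 to 0.51, limma adjusted p = 0.833).

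Notch1 encodes the receptor that directs progenitors to the T cell lineage. It was read at 7.02, 5.42 and 3.78 FPKM in Hmces knockout libraries and at 6.69, 5.73 and 6.42 FPKM in WT libraries. The WT values lay within the range of the knockout values. The log2 fold change was -0.21 (95% interval -0.86 to 0.44, limma adjusted p = 0.836). In the GENCODE mouse annotation of GRCm38, 2 transcripts on the opposite strand share exon bases with Notch1, and the sources used here do not say if counting used strand. Satb1 and Pax5 each share exon bases with 2 further annotated transcripts, also not separated here.

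Il7r, the alpha chain of the interleukin-7 receptor on which mouse lymphocyte development depends, was low in both genotypes and lay higher in knockout libraries. It was read at 5.84, 5.12 and 5.02 FPKM in Hmces knockout libraries and at 1.81, 1.09 and 2.03 FPKM in WT libraries. Each knockout value was above each WT value, and the 3 knockout values differed little among themselves. The means were 5.33 ± 0.448 FPKM in knockout and 1.64 ± 0.494 FPKM in WT cells (SD, n = 3 each), a ratio of 3.25, and both group means were above the filter of 1 FPKM. The log2 fold change was 1.28 (SE 0.30, 95% interval 0.59 to 1.97), with an unadjusted limma p of 0.00277 and an adjusted p of 0.313. The exact two-sided permutation test over libraries gave p = 0.1, and with 3 libraries in each group no smaller p can be had.

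Cd3d encodes the delta chain of CD3, which carries the T cell receptor signal. It was read at 5.02, 4.66 and 7.52 FPKM in Hmces knockout libraries and at 0.730, 1.21 and 2.55 FPKM in WT libraries. The groups did not overlap, but WT replicate 3 was closer to the knockout values than the other WT libraries were. The means were 5.73 ± 1.55 FPKM in knockout and 1.50 ± 0.944 FPKM in WT cells (SD, n = 3 each), a ratio of 3.82. The log2 fold change was 1.47 (SE 0.37, 95% interval 0.61 to 2.33), with an unadjusted limma p of 0.00433, an adjusted p of 0.332 and an exact two-sided permutation p of 0.1. The low levels rest on few reads: with the longest coding transcript of 1617 nt, Cd3d had at most about 68, 74 and 99 fragments in the knockout libraries and 10, 23 and 52 in the WT libraries.

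The promoters of Il7r and Cd3d, the pair whose groups did not overlap, are shown with that of Dntt, the most abundant of the 10 genes. Each runs from 250 bases before to 50 bases after the start site and comes from RefSeq on build GRCm38.p6, whereas the expression table was made on mm9. The Il7r promoter is chr15:9529827-9530126 on the minus strand, that of Cd3d is chr9:44981536-44981835 on the plus strand, and that of Dntt is chr19:41029025-41029324 on the plus strand. Capitals mark matches, on either strand, to any of 5 motifs: the E-protein box CAGNTG, the Ikaros core TGGGAA, the ETS core GGAAGT, the RUNX site TGTGGT and the TATA box TATAAA.
Il7r: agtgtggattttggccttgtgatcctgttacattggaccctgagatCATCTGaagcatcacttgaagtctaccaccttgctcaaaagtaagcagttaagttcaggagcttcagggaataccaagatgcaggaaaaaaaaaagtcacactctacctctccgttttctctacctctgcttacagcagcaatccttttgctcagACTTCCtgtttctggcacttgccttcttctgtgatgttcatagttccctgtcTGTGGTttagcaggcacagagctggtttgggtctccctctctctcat
Cd3d: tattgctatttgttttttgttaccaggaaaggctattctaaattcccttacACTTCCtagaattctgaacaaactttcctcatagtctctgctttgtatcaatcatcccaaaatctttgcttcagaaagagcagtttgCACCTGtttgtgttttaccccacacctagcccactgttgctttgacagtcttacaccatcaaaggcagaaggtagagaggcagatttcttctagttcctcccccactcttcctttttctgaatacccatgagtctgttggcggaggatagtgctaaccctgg
Dntt: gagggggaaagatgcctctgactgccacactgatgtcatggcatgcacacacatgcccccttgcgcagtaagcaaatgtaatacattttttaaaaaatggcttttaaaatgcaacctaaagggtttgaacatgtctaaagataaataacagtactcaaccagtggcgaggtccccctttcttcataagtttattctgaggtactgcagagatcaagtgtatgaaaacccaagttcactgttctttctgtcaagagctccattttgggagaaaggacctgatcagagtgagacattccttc
The Il7r promoter held an E-protein box 204 bases before the start site, an ETS core 49 bases before it and a RUNX site that began 3 bases after it. The Cd3d promoter held an E-protein box 112 bases and an ETS core 199 bases before the start site. The Dntt window held no match to the 5 motifs. None of the matches overlapped another. Among 32817 RefSeq promoter windows of the same length, 51.4% held the E-protein box, 25.6% the Ikaros core, 23.8% the ETS core, 16.8% the RUNX site and 13.6% the TATA box, so that these matches are a description of the letters only.

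The partners of Il7r were abundant in both genotypes, whereas the other CD3 chain genes reached at most 4.07 FPKM. Il2rg, the common gamma chain that pairs with the alpha chain to form the receptor, was read at 153, 118 and 141 FPKM in Hmces knockout libraries and at 93.1, 111 and 106 FPKM in WT libraries. Its groups did not overlap, and the log2 fold change of 0.40 (SE 0.14) was not called (limma adjusted p = 0.490). Jak1 and Jak3, the kinases bound to the receptor chains, overlapped between genotypes, with Jak3 at 58.8, 73.4 and 57.2 FPKM in knockout and 65.8, 68.0 and 64.1 FPKM in WT libraries. Of the CD3 chains, Cd3g was listed at 0 in 3 of 3 Hmces knockout libraries and at 0.627, 0.463 and 0 FPKM in WT libraries. Cd3e was listed at 0, 3.18 and 0 FPKM in knockout and at 0, 0.801 and 0 FPKM in WT libraries. The gamma and epsilon chain genes were thus at 0 in most libraries in which Cd3d was read. Cd247, the zeta chain, was read at 2.92, 4.07 and 0.434 FPKM in knockout and at 0.139, 0.307 and 0.331 FPKM in WT libraries, without overlap; the ratio of means was 9.56 and the difference was not called (limma adjusted p = 0.532).

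**Figure D4:**
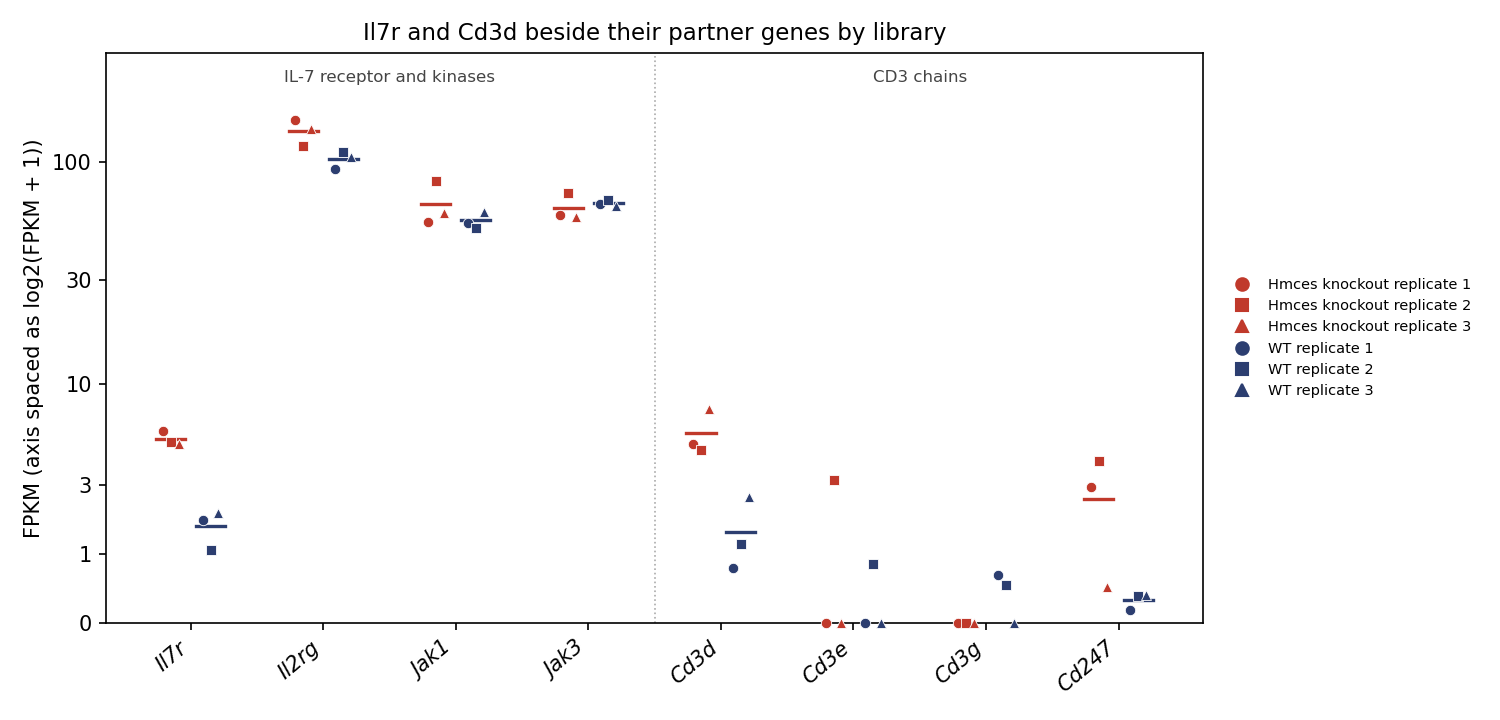
FPKM of Il7r with its receptor partner Il2rg and the kinases Jak1 and Jak3, and of Cd3d with the other CD3 chains, in each library; points are libraries and bars are arithmetic means, left out where a library is listed at 0. Cd3d was read in all 6 libraries, whereas Cd3e and Cd3g were each listed at 0 in 4 of 6.

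Of the recombination enzymes, Dntt was abundant in both genotypes and the Rag genes were not. Dntt encodes terminal deoxynucleotidyl transferase, which adds bases at the joints of rearranging receptor genes. It was read at 279, 199 and 217 FPKM in Hmces knockout libraries and at 154, 214 and 229 FPKM in WT libraries. Knockout replicate 1 was the highest and WT replicate 1 the lowest, and the groups overlapped. The means were 232 ± 42.1 FPKM in knockout and 199 ± 39.4 FPKM in WT cells (SD, n = 3 each), with a log2 fold change of 0.22 (95% interval -0.21 to 0.65, limma adjusted p = 0.735). The gene ranked above 96.7% to 98.2% of all genes in each library, and its level exceeded that of Flt3 in every library.

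Rag1 and Rag2 encode the subunits of the recombinase that cuts receptor genes. Rag1 was read at 0.550, 0.124 and 0.0166 FPKM in Hmces knockout libraries and was listed at 0 in 3 of 3 WT libraries. On its transcript of 6608 nt these values correspond to about 34, 9 and 1 fragments, so that knockout replicate 1 held most of them and replicate 3 a single one. For the WT libraries, 3 fragments would correspond to 0.048, 0.036 and 0.033 FPKM. Rag2 was read at 0.0656, 1.84 and 0.0672 FPKM in knockout libraries and at 1.22, 0.643 and 0.945 FPKM in WT libraries. Knockout replicates 1 and 3 were below all WT values and replicate 2 above them. Neither gene reached the filter; in the limma fit without a filter, the log2 fold change was 0.27 (adjusted p = 0.765) for Rag1 and -0.38 (adjusted p = 0.778) for Rag2.

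The Rag genes also share exon sequence with a neighbouring gene. In the same annotation B230118H07Rik shares 208 exon bases with Rag2 on the opposite strand and 80 with Rag1 on the same strand. B230118H07Rik was read at 25.1, 20.6 and 22.5 FPKM in Hmces knockout libraries and at 15.6, 16.4 and 15.7 FPKM in WT libraries. Its knockout values all lay above its WT values, and the difference was not called (limma adjusted p = 0.490). Its part in the Rag values was not tested.

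The B cell factors were sporadic. Ebf1, which starts the B cell programme, was read at 0, 3.62 and 0.315 FPKM in Hmces knockout libraries and at 0.201, 0.781 and 0.824 FPKM in WT libraries. The value of knockout replicate 2, the library with the outlying principal component score, exceeded all others, and the other 2 knockout values were below the 2 higher WT values. Pax5, which keeps B cells committed, was read at 0.521, 0 and 0.107 FPKM in knockout and at 0.205, 0 and 0.349 FPKM in WT libraries. The groups of both genes overlapped. In the fit without a filter the log2 fold changes were 0.21 for Ebf1 and 0.02 for Pax5 (limma adjusted p = 0.907 and 0.981).

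The low-level transcripts did not peak in the same library. Rag1, Pax5 and Il7r were highest in Hmces knockout replicate 1, Rag2 and Ebf1 in knockout replicate 2, and Cd3d in knockout replicate 3. Knockout replicate 1 also held 675 FPKM of the immunoglobulin joining chain gene Igj (now Jchain) and 956 FPKM of the eosinophil gene Prg2, against at most 83.8 and 22.2 FPKM in the other libraries. The part of these transcripts in the values of the lymphoid genes was not tested.

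Markers of lymphocytes and other marrow cells gave the following levels beside Il7r and Cd3d. Over all genes tested, 4.32% were higher and 4.84% lower at an unadjusted p under 0.05, and 0.113% were called by limma. Of 19 T cell markers, 9 were tested, with 1 higher (Cd247) and 1 lower (Cd2) at an unadjusted p under 0.05 and 0 called by limma. Their summed level was 110 to 152 FPKM in Hmces knockout and 121 to 133 FPKM in WT libraries. Cd2 was listed at 0 in 3 of 3 knockout libraries and at 1.75, 1.94 and 2.46 FPKM in WT libraries. Most of the T cell sum came from Lat and Lck, which were read in all libraries at 73.6 to 90.5 and 21.7 to 33.6 FPKM in knockout cells and at 78.9 to 82.4 and 22.1 to 28.7 FPKM in WT cells.

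Of 16 B cell markers, 11 were tested, with 2 higher and 0 lower at an unadjusted p under 0.05, and a summed level of 337 to 383 FPKM in Hmces knockout and 319 to 346 FPKM in WT libraries. The 2 were Vpreb1 and Igll1, which encode parts of the surrogate light chain of early B cells. Vpreb1 was read at 13.9, 27.9 and 4.37 FPKM in knockout and at 1.46, 1.62 and 3.48 FPKM in WT libraries. Igll1 was read at 22.6, 9.76 and 10.8 FPKM in knockout and at 0, 8.43 and 4.53 FPKM in WT libraries. Neither was called (limma adjusted p = 0.389 and 0.526), although the groups of both did not overlap. Vpreb2, a close copy of Vpreb1 whose reads may be hard to separate from it, was read at 6.51, 0 and 0 FPKM in knockout and at 0, 0 and 2.18 FPKM in WT libraries. The related gene Vpreb3 was read at 0, 17.4 and 5.11 FPKM in knockout and at 4.39, 3.62 and 7.75 FPKM in WT libraries, and the groups of both overlapped. The largest part of the B cell sum came from Cd24a, at 176 to 216 FPKM in knockout and 191 to 225 FPKM in WT libraries. Of the 11 tested B cell markers, 9 had a positive log2 fold change, against 48.1% of all genes tested. Their median was 0.41, against -0.01 over all genes tested.

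Markers of other cell types gave these levels, and the same shares of all genes tested stand beside their counts. Of 14 natural killer and innate lymphoid markers, 7 were tested and 1, Zbtb16, was higher at an unadjusted p under 0.05, with a sum of 400 to 487 FPKM in Hmces knockout and 320 to 443 FPKM in WT libraries and Gzma at 0 throughout. Most of this sum came from Nkg7, at 364 to 454 FPKM in knockout and 298 to 419 FPKM in WT libraries. Plasmacytoid dendritic cells also express Dntt and Rag genes; 7 of their 9 markers were tested, 1 (Ccr9) was lower, and the sum was 161 to 233 FPKM in knockout and 190 to 267 FPKM in WT libraries. Their defining marker Siglech was read at 0, 1.54 and 1.86 FPKM in knockout and at 1.41, 0.519 and 0.0959 FPKM in WT libraries, and Klk1 was at 0 throughout. Most of the plasmacytoid dendritic sum came from Bst2, at 115 to 175 FPKM in knockout and 144 to 207 FPKM in WT libraries. Of 5 plasma cell markers, 3 were tested and 1, Sdc1, was lower, with sums of 115 to 849 FPKM in knockout and 128 to 241 FPKM in WT libraries. Most of each plasma cell sum came from Xbp1, except in knockout replicate 1, where Igj gave most. Xbp1 was read at 109 to 170 FPKM in knockout and at 116 to 145 FPKM in WT libraries. All 14 granulocyte and monocyte markers were tested, of which 11 were higher at an unadjusted p under 0.05 and 2, Mpo and Ctsg, were called. Their sum was 19476 to 25918 FPKM in knockout and 7074 to 10952 FPKM in WT libraries. All 7 basophil, mast cell and eosinophil markers were tested, with 3 higher and 0 called, and sums of 114 to 1038 FPKM in knockout and 58.8 to 113 FPKM in WT libraries. The part of these cells in the Il7r and Cd3d values was not tested.

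The wider pathways around the 10 genes held 0 genes called by limma, against 0.113% of all genes tested. Of all genes tested, 48.1% had a positive log2 fold change. Among 22 genes of the Ikaros and E protein regulators, 20 were tested, 12 had a positive log2 fold change, and the median was 0.04. Tcf3, which encodes the E2A proteins needed for lymphoid development, was the 1 with an unadjusted p under 0.05, at 22.0, 13.2 and 11.6 FPKM in Hmces knockout and 26.7, 48.9 and 20.8 FPKM in WT libraries (limma adjusted p = 0.499). The groups overlapped. Id1, an inhibitor of E proteins, had 4.14, 4.53 and 12.9 FPKM in knockout and 3.49, 3.65 and 2.88 FPKM in WT libraries, with the groups apart (limma adjusted p = 0.618). The RNA-binding protein gene Zfp36l2 had 81.3, 61.9 and 62.5 FPKM in knockout and 76.9, 81.0 and 81.0 FPKM in WT libraries. The most abundant of the list, the PU.1 gene Sfpi1 (now Spi1), had 121, 142 and 125 FPKM in knockout and 153, 128 and 99.9 FPKM in WT libraries.

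Of the chromatin partners of Ikaros and SATB1, 12 genes were tested, 4 had a positive log2 fold change and the median was -0.14. Mbd3, a subunit of the NuRD remodelling complex that Ikaros binds, was the 1 with an unadjusted p under 0.05. It had 43.4, 19.0 and 24.3 FPKM in Hmces knockout and 49.2, 43.8 and 46.0 FPKM in WT libraries (limma adjusted p = 0.506). Knockout replicate 1 lay close to the WT values, and the other 2 knockout libraries were lower. Hdac2, a histone deacetylase of the same complex, showed a similar split, with 81.1, 29.6 and 33.4 FPKM in knockout and 66.7, 67.9 and 68.7 FPKM in WT libraries (limma adjusted p = 0.613). The corepressor gene Ctbp1 had 55.1, 34.5 and 42.5 FPKM in knockout and 61.4, 56.1 and 54.3 FPKM in WT libraries. Rbbp7, a histone-binding subunit and the most abundant of the list, had 195, 201 and 192 FPKM in knockout and 218, 209 and 231 FPKM in WT libraries, without overlap (limma adjusted p = 0.663).

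All 14 genes of interleukin-7 receptor signalling were tested, with 7 positive log2 fold changes and a median of -0.02, and Il2rg was the 1 with an unadjusted p under 0.05. Cish, a feedback inhibitor induced by STAT5, had 14.7, 14.6 and 18.8 FPKM in Hmces knockout and 19.5, 17.9 and 26.3 FPKM in WT libraries (limma adjusted p = 0.641). Crlf2, the receptor subunit that pairs with the interleukin-7 receptor alpha chain to bind TSLP, had 38.0, 55.7 and 57.0 FPKM in knockout and 56.6, 64.4 and 56.2 FPKM in WT libraries. Crlf2 was therefore above Il7r in every library of either genotype. Ptpn6, the phosphatase SHP-1 and the most abundant of the list, had 183, 178 and 217 FPKM in knockout and 188, 198 and 162 FPKM in WT libraries.

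The Notch pathway list held 37 genes, of which 24 were tested, 15 had a positive log2 fold change and the median was 0.09. At an unadjusted p under 0.05, 1 was higher (Maml2) and 1 lower (Mfng), against 4.32% and 4.84% of all genes tested. Knockout values lay wholly above WT for 4 of the 24 (Notch2, Rfng, Pofut1 and Fbxw7) and wholly below for 1 (Mfng), against 7.47% and 8.34%. Mfng, a fringe enzyme that modifies Notch receptors, had 92.9, 94.3 and 81.6 FPKM in Hmces knockout and 120, 136 and 103 FPKM in WT libraries. The groups did not overlap and the difference was not called (limma adjusted p = 0.488). The coactivator gene Maml2 had 9.37, 12.3 and 7.47 FPKM in knockout and 7.67, 4.09 and 4.69 FPKM in WT libraries (limma adjusted p = 0.534). A second fringe gene, Rfng, had 19.2, 16.8 and 17.9 FPKM in knockout and 15.8, 12.6 and 10.8 FPKM in WT libraries, so that it lay above WT where Mfng lay below (limma adjusted p = 0.562). Psenen, a gamma-secretase subunit and the most abundant of the list, had 151, 116 and 144 FPKM in knockout and 146, 176 and 112 FPKM in WT libraries. Notch2 exceeded Notch1 in every library, at 19.1, 21.6 and 19.1 FPKM in knockout and 15.5, 15.4 and 17.2 FPKM in WT libraries. Notch3 and Notch4 stayed below 0.4 FPKM. Hes1, a direct Notch target, had 10.2, 4.78 and 7.82 FPKM in knockout and 3.30, 4.08 and 6.35 FPKM in WT libraries, with overlap, whereas the T lineage target Dtx1 was listed at 0 in 5 of 6 libraries.

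All 11 markers of lymphoid-primed progenitors were tested, with 4 positive log2 fold changes and a median of -0.09. Ccr9, the chemokine receptor that guides progenitors to the thymus, was the 1 with an unadjusted p under 0.05. It had 0.228, 2.35 and 2.42 FPKM in Hmces knockout and 7.44, 6.29 and 3.03 FPKM in WT libraries, without overlap (limma adjusted p = 0.495). The adaptor gene Lax1 had 29.1, 13.2 and 15.3 FPKM in knockout and 26.5, 22.5 and 23.3 FPKM in WT libraries, with overlap. Ly6d, a marker of B cell-biased lymphoid progenitors, had 28.3, 8.04 and 12.3 FPKM in knockout and 10.3, 15.6 and 8.93 FPKM in WT libraries, and its highest value fell in knockout replicate 1, as that of Dntt did.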

How the data were processed

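Libraries were made from 6 samples, 3 Hmces knockout and 3 WT, and sequenced as paired-end reads of 150 bp. The authors deposited a table of FPKM per gene and library. TopHat2 2.1.1 and Cufflinks 2.2.1 were used with build mm9, per the submitters' processing notes. The sources used here do not give annotation, options or strand use, and a value of 0 can be a failed estimate. Depth came from the spacing of low FPKM values over 1427 genes with 1 annotated transcript, assuming fragments of 200 nt; fragment numbers use the longest coding GENCODE transcript and cover counting error only. Genes averaging at least 1 FPKM were tested on log2(FPKM + 1), a scale that understates changes of low genes, with limma 3.58.1 in R 4.3.3 (empirical Bayes with trend, genotype as the only term, two-sided, Benjamini-Hochberg over 11532 genes, threshold 0.05). The script was tested on simulated data. Since separate mice are not stated, p-values reflect the spread of these libraries alone, possibly a technical one.

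The 10 genes and all gene lists were chosen with earlier results of these data known. The rule for naming genes beyond the 10 took Hmces and, in each pathway list, called genes, the 3 tested genes with the smallest p and the most abundant one. Partners and cell type markers were chosen after their values were seen. A few listed genes are not reported here. Alternatives covered the pseudocount (0.1), filters (none, 0.1), scaling, variance model, library weights, small RNA genes, a replicate block and leaving out each library.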

Additional observations from a re-analysis of the deposited data

How the results depend on the processing

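Under all 16 alternatives run, 0 of the 6 tested lymphoid genes were called, as were 0 of the other 4 in the fits with no filter or a filter of 0.1 FPKM that included them, and Il7r and Cd3d were the 2 with an unadjusted limma p under 0.05. The log2 fold change ranged from 1.11 to 1.68 for Il7r and from 1.24 to 2.00 for Cd3d, with adjusted p between 0.194 and 0.803 and between 0.173 and 0.820. The log2 fold change of Ikzf1 ran from -0.12 to 0.044 when libraries were left out 1 at a time, the positive value being that without Hmces knockout replicate 3. In the same way Satb1 ran from -0.56 without knockout replicate 3 to -1.76e-05 without knockout replicate 1, Notch1 from -0.39 without knockout replicate 1 to -0.019 without knockout replicate 3, and Dntt from 0.05 without WT replicate 1 to 0.33 without WT replicate 3; none of these was called. The number of genes called in all, 13 in the fit described, was 1 with no filter, which tests more genes, 6 with no variance trend, 20 with robust estimation, 36 without small RNA genes and 2 with a replicate block, and ranged from 2 to 19 when libraries were left out 1 at a time. It was 2 without Hmces knockout replicate 3, 5 without knockout replicate 2 and 7 without WT replicate 2. The causes were not tested. Libraries sharing a replicate number were not treated as pairs, since no label states a shared mouse and their deviations from the group means correlated at 0.08, 0.011 and 0.035; the replicate block left 0 members called. Rag1 and Pax5 rest on at most about 39 fragments in any library, and Rag2 and Ebf1 varied widely among the knockout libraries.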
